A study of Mus musculus with 20 samples.

Results

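The S100 proteins are small calcium-binding proteins of the EF-hand type, and 6 members of the family, S100a8, S100a9, S100a4, S100a6, S100a10 and S100a11, were followed here through scRNA-seq of macrophages and ATAC-seq of their candidate precursors in mice. The members were listed by name, with earlier results of these data known. All 6 were found in both scRNA-seq tables, among 16790 genes listed in either table, of which 15855 were in the table of cultured cells and 15333 in that of tumor cells. In the culture experiment, sorted BM B cells or monocytes were cultured with 4T1.2-CM, the conditioned medium of a mouse breast cancer line, for 7 days. The resulting macrophages were named B-MF and Mo-MF, with 2 libraries each. The methods describe a harvest of adherent cells for the conversion assay, and for scRNA-seq state that the loaded suspensions had been purified by sorting. In the tumor experiment, TAM were sorted from mice bearing 4T1.2 cancer, giving 4 libraries for 4 mice. The study defines TAM by staining for both F4/80 and CD11b, of which neutrophils are known to carry CD11b, and the gate of the sequenced libraries was not given in the sources used here. The ATAC-seq libraries, 3 for each of 4 groups, were of CSF1R+ and CSF1R- B-cell precursors (BMBP) from the BM and the spleen of naïve mice, cells that the sample labels call macrophages. Per the study's methods the mice were young females. The methods place 4T1.2 tumors in BALB/cJ or B-cell-deficient μMT mice and take B cells for culture from C57BL/CJ or BALB/CJ mice, without saying which of these gave each library, and the labels name neither strain nor engineered allele. Libraries were not stated to be separate cultures, so p-values for culture measure only the spread between these libraries, which may be technical.

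The members differ in what they are known for. S100A8 and S100A9 pair into calprotectin, the most abundant cytosolic protein of neutrophils, which is also made by monocytes on their way to tissue and which acts outside the cell through TLR4 and RAGE (the product of Ager). S100A4 binds non-muscle myosin and is tied to cell motility, S100A6 (calcyclin) and S100A11 bind annexins, and S100A10, which has lost the ability to bind calcium, forms a tetramer with annexin A2 at membranes.

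All 6 genes lie on chromosome 3 of GRCm38, in a pair of groups. S100a4 (ENSMUSG00000001020.8, 90603771 to 90606045, plus strand), S100a6 (ENSMUSG00000001025.8, 90612882 to 90624181, plus strand), S100a8 (ENSMUSG00000056054.9, 90668978 to 90670035, plus strand) and S100a9 (ENSMUSG00000056071.12, 90692632 to 90695721, minus strand) lay together. S100a11 (ENSMUSG00000027907.4, 93520488 to 93526287, plus strand) and S100a10 (ENSMUSG00000041959.14, 93555080 to 93564643, plus strand) were 2.825 Mb beyond S100a9. S100a8 and S100a9, which point toward each other, were separated by 22.6 kb, and S100a4 and S100a6 by 6.84 kb.

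The promoter sequences of S100a8 and S100a9 are shown because both had an ATAC-seq peak in the BM and not in the spleen, and that of the neighbour S100a4 because it was open in every library. They are from RefSeq (GRCm38.p6), read 5′ to 3′ on the strand of the gene, and end before the first annotated exon. Capitals mark the letters TTNNGNAA on either strand, the core that C/EBP factors of myeloid cells recognize. The stretches lie at chr3:90668821-90668977 on the plus strand (S100a8), chr3:90695722-90695971 on the minus strand (S100a9) and chr3:90603520-90603769 on the plus strand (S100a4).
S100a8: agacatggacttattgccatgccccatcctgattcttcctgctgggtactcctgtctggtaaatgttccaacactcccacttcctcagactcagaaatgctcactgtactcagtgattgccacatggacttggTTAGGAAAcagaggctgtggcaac
S100a9: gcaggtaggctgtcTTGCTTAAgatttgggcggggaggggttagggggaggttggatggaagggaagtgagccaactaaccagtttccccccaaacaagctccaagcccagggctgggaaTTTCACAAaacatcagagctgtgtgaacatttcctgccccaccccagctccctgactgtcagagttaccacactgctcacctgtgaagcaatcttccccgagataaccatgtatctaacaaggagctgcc
S100a4: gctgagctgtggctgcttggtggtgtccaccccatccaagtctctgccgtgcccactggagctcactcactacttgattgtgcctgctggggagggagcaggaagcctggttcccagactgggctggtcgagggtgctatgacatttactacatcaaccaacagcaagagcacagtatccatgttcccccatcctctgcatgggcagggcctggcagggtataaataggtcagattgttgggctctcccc

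Of the 5 members with a promoter entry, TTNNGNAA was found in the 250 bases before the start once for S100a8 and 2 times for S100a9, and not for S100a4, S100a6 or S100a11. It was present in 36.85% of 32851 promoters of the same length, so its presence is common. GAGGAA, the core of ETS factors such as PU.1, was found 2 times for S100a8 and once for S100a11 (23.25% of promoters). TATAAA was found once each for S100a8 and S100a4 (12.37%), and TGANTCA, the AP-1 core, was found 2 times, for S100a11 alone (6.749%). All were searched on both strands, and the matches in the printed stretches do not overlap each other. These matches are descriptions of the letters and were not tested for binding.

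The values of scRNA-seq are corrected counts per cell, obtained by converting the deposited natural logarithms back. The 4 culture libraries held 4846 to 5389 cells with median totals of 18350 to 19469 corrected counts, and the 4 tumor libraries (numbered 2 to 5 in the table) held 2318 to 3180 cells with median totals of 7651 to 8266. The culture and the tumor table were normalized separately, so levels are compared only within a table, and since the kit reads the 3′ end of transcripts, levels are not divided by gene length. Cells sharing a barcode with a cell of another library of the same table numbered 15 to 28 per culture library and 3 to 9 per tumor library. Cells were clustered without any S100 gene, so that the classes below do not rest on the members, though they rest on genes that vary with them. Of the 12 neutrophil markers, 12 were above the median cluster in the culture cluster called neutrophil-like. In the tumor clusters so called, 12 were above it in the one led by Ngp and 8 in the one led by Ifit1. Each of the other tumor clusters so called had 10. These counts are part of the naming rule and lend the names no separate support. The labels call all cells macrophages, yet neutrophil-like cells made up 11.5% and 10.7% of the 2 Mo-MF libraries (559 and 574 cells) and 37.5% to 63.4% of the tumor libraries (1162 to 1714 cells), against 3 cells in B-MF replicate 1 and none in B-MF replicate 2. In culture, the comparisons of B-MF with Mo-MF for the members and the gene lists are therefore given with and without them.

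B-MF had almost no S100a8 and S100a9, and Mo-MF had much of both. Per cell, S100a8 averaged 0.164 (replicate 1) and 0.0560 (replicate 2) corrected counts for B-MF, against 53.9 and 43.6 for Mo-MF. S100a9 averaged 0.181 and 0.00582 for B-MF, against 84.1 and 66.8 for Mo-MF. The libraries of the 2 cell types were far apart for both genes, whereas the B-MF libraries differed between themselves most for S100a9. On the log2(mean + 0.1) scale, on which all differences below are given and which understates those of low genes, B-MF minus Mo-MF was -7.90 for S100a8 and -8.76 for S100a9. In B-MF both genes were near or below 0.1, which was both the pseudocount and the minimum mean, so the size of these differences depends on the pseudocount and they are given as a description, with no test. The differences were -8.82 and -10.4 with a pseudocount of 0.01, and -5.48 and -6.12 with one of 1.

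The other members were expressed in both. S100a11 averaged 4.44 and 4.51 for B-MF against 9.54 and 8.77 for Mo-MF, a log2 difference of -1.02 (SE 0.0577, adjusted p = 4.80e-06 by limma with Benjamini-Hochberg adjustment). S100a6 averaged 7.40 and 7.18 for B-MF against 10.5 and 10.2 for Mo-MF, a difference of -0.50 (SE 0.0511, adjusted p = 1.40e-04 by limma). Both were higher in each Mo-MF library than in each B-MF library. S100a4 averaged 1.25 and 1.03 for B-MF against 1.18 and 1.05 for Mo-MF, overlapping between the cell types (0.03, SE 0.0899, adjusted p = 0.830 by limma). S100a10 averaged 8.34 and 8.25 for B-MF against 8.05 and 8.14 for Mo-MF, a difference of 0.04 (SE 0.0492, adjusted p = 0.615 by limma). All 6 members passed the minimum mean, S100a8 and S100a9 by their level in Mo-MF. Of the other 4, 2 were called lower and none higher in B-MF, where 16.9% of the 8633 genes tested were called lower and 22.6% higher. S100a4 was called higher (0.16) when B-MF replicate 2 was left out and its sign turned without B-MF replicate 1 or Mo-MF replicate 2 (-0.10 and -0.05), so no direction can be given for it.

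Most of the S100a8 and S100a9 of culture lay in the neutrophil-like cells. These cells held 98.6% and 98.7% of the S100a8 counts and 98.6% and 98.9% of the S100a9 counts of the Mo-MF libraries. They held 42.7% and 39.0% of the S100a6 counts, 41.95% and 38.45% of the S100a11 counts, 8.96% and 7.45% of the S100a4 counts and 6.78% and 7.22% of the S100a10 counts. In B-MF replicate 1, the 3 neutrophil-like cells alone held 596 of 859 S100a8 counts (69.4%) and 938 of 949 S100a9 counts (98.8%). The higher S100a9 of this library relative to B-MF replicate 2 thus lay in 3 cells.

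**Figure D1:**
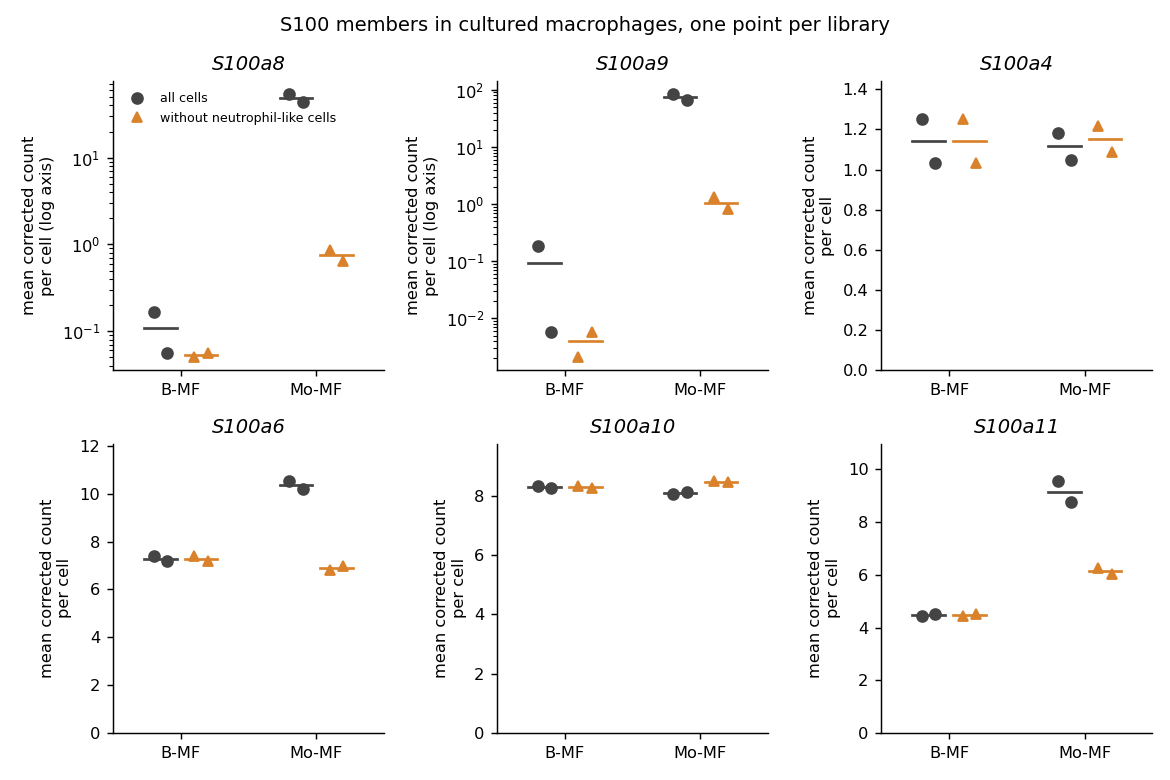
Mean corrected count per cell of each member in the 2 B-MF and 2 Mo-MF libraries (points, 1 per library; lines, their means), over all cells (circles) and without neutrophil-like cells (triangles); S100a8 and S100a9 are on a log axis and the others on a linear one. Without neutrophil-like cells, S100a8 and S100a9 of Mo-MF fall from between 43.6 and 84.1 to between 0.644 and 1.32, S100a6 of Mo-MF comes to the level of B-MF, and S100a4 and S100a10 barely move.

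In the remaining cells, S100a8 and S100a9 were still higher in Mo-MF, at low levels. S100a8 averaged 0.0502 and 0.0560 for B-MF against 0.864 and 0.644 for Mo-MF, a log2 difference of -2.47. S100a9 averaged 0.00210 and 0.00582 for B-MF against 1.32 and 0.816 for Mo-MF, a difference of -3.45. With B-MF below the pseudocount of 0.1, these sizes are set largely by it, and with a pseudocount of 1 they were -0.73 and -1.03. Both genes passed the minimum mean by their level in Mo-MF, so these differences too are given as a description, with no test. S100a11 also stayed lower in B-MF, at 4.43 and 4.51 beside 6.26 and 6.04 in Mo-MF (-0.45, SE 0.0509, adjusted p = 2.31e-04 by limma). S100a6 did not, with 7.39 and 7.18 in B-MF beside 6.81 and 6.97 in Mo-MF (0.08, SE 0.0507, adjusted p = 0.260 by limma). Its mean in B-MF replicate 1 is raised by 11 cells of a small cluster led by Sparc, Cald1 and Col1a2, which averaged 213. The S100a6 difference called over all cells was not called without the neutrophil-like cells. S100a4 (1.25 and 1.03 beside 1.22 and 1.09) and S100a10 (8.34 and 8.25 beside 8.48 and 8.45) differed by -0.01 and -0.03, with adjusted p values of 0.920 and 0.679 by limma. Of the 4 members other than S100a8 and S100a9, 1 was thus called lower in B-MF and none higher, where 17.0% of 8598 genes were called lower and 21.4% higher.

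The S100a8 and S100a9 left in Mo-MF were found as few counts in many cells. A count of S100a8 was present in 34.9% and 32.8% of the remaining Mo-MF cells and of S100a9 in 43.2% and 39.1%. The corresponding shares in B-MF were 4.28% and 4.58% for S100a8 and 0.191% and 0.244% for S100a9. With each cell thinned to 5000 corrected counts, the shares of S100a9 were 15.8% and 13.7% in Mo-MF and 0.0191% and 0.113% in B-MF, leaving their order as it was. Cells with at least 100 counts were rare, 3 in each Mo-MF library for S100a8 and 9 and 3 for S100a9, and they held 13.6% and 14.6% of the S100a8 and 29.5% and 10.8% of the S100a9 counts of these cells. Across the Mo-MF clusters outside the neutrophil-like cells, S100a9 ranged from 0.524 to 5.23 per library, with the highest levels in the proliferating cells (5.23 and 3.52). The ratio of S100a8 to S100a9 counts was 0.656 and 0.790 in these cells and 0.641 and 0.651 in the neutrophil-like cells beside them. The sum of the 12 neutrophil markers was also higher in the remaining Mo-MF cells (6.93 and 6.69) than in B-MF (4.80 and 4.78). Only 3 of these markers passed the minimum mean there. B-MF replicate 2 reached its sum without any neutrophil-like cell, so the sum is not specific to such cells. In the Mo-MF cells of a cluster led by Igkc, Prss34 and Mcpt8, genes of plasma cells and basophils, 14.3% and 20% of cells had an S100a8 count and 26.8% and 15.2% an S100a9 count. Whether free RNA from neutrophil-like cells took part in these low levels was not tested.

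Within each cell type of culture, S100a4, S100a6 and S100a10 varied between clusters. In B-MF, the cells led by Myc, St3gal5 and Lpl (2140 and 2351 cells) had 10.3 and 9.86 of S100a6, 1.82 and 1.41 of S100a4 and 9.95 and 9.44 of S100a10. Those led by H2-Eb1, Tmem176a and Ier3 (2307 and 2287 cells) had 3.61 and 3.86, 0.586 and 0.533, and 6.36 and 6.54. Mo-MF were split alike. The cells led by Ly6a and Tmem171 (1028 and 1185 cells) had 14.4 and 14.2 of S100a6 and 3.6 and 3 of S100a4, whereas the larger cluster led by Bex1 and Arg1 (2720 and 3079 cells) had 3.98 and 4.18 of S100a6 and 0.258 and 0.242 of S100a4. In proliferating cells, S100a10 was at 18.8 and 18.7 for B-MF and at 16.8 and 15.9 for Mo-MF, beside 4.62 to 11.2 in the other clusters. S100a11 ranged from 3.28 to 8.76 per library, outside the neutrophil-like cells and a cluster of 21 cells led by Sparc, Cald1 and Col1a2. The 11 cells of this cluster in B-MF replicate 1 had 213 counts of S100a6, 19.3 of S100a4 and 25.7 of S100a11, and none of S100a8 or S100a9.

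**Figure D2:**
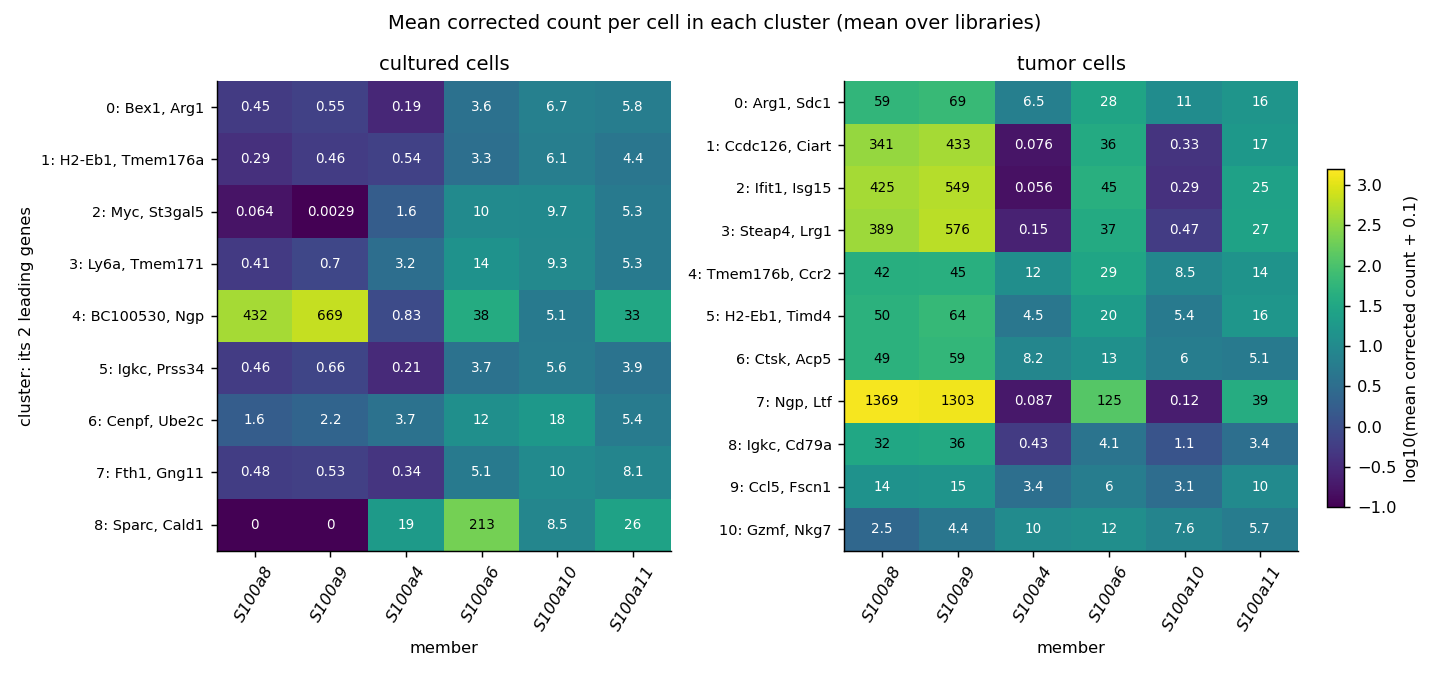
Mean corrected count per cell of each member (columns) in each cluster (rows, named by number and 2 leading genes) of cultured cells (left) and tumor cells (right), averaged over the libraries (both cell types in culture) with at least 10 cells in the cluster; colour is log10(mean + 0.1). S100a8 and S100a9 are concentrated in cluster 4 of culture and clusters 1, 2, 3 and 7 of the tumor, whereas S100a4 and S100a10 are lowest in those tumor clusters.

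Among the other S100 genes, 8 of a list of 11 were in the culture table and only S100a1 and S100a13 passed the minimum mean of 0.1. Both were called higher in B-MF, as were 22.6% of all genes tested. S100a1 averaged 7.83 and 7.93 for B-MF against 5.83 and 5.78 for Mo-MF (0.43, adjusted p = 2.50e-04 by limma). S100a13 averaged 3.35 and 3.36 beside 2.49 and 2.48 (0.42, adjusted p = 2.95e-04 by limma). Without neutrophil-like cells both were again called higher, by 0.36 and 0.40, beside 21.4% of all genes. They lie next to each other on chromosome 3, at 90511034 to 90514392 and 90514435 to 90524581.

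The annexins, which S100A6, S100A10 and S100A11 bind, were mostly lower in B-MF. Of 8 tested over all cells, 6 were called lower and 2 higher (Anxa3 and Anxa6), beside 16.9% and 22.6% of all genes, with a median of -0.26 beside 0.02 over all genes. Without neutrophil-like cells, 6 were called lower and Anxa3 alone higher, with a median of -0.24 beside 0.01, and Anxa6 (0.12) had an adjusted p of 0.0987 by limma. Anxa1, which S100A11 binds, averaged 7.87 and 8.15 for B-MF against 17.2 and 16.6 for Mo-MF (-1.07). Anxa2, the partner of S100A10, averaged 7.69 and 7.70 beside 9.54 and 9.36 (-0.29), although S100a10 itself did not pass the test. Among receptors and co-receptors of S100A8/A9, Cd14, which presents ligands to TLR4, was higher in B-MF (10.9 and 10.1 beside 5.34 and 5.45, 0.95) and so was Bsg (0.32), whereas Tlr4 was lower (0.539 and 0.508 beside 0.636 and 0.620, -0.22). Without neutrophil-like cells the differences of these 3 were 0.97, 0.31 and -0.24, and each was again called. They were 2 higher and 1 lower of 6 receptors tested, beside 22.6% and 16.9% of all genes. Ly96, Alcam and Cd36 passed in neither set of cells, and Ager had at most 0.0107 per cell in a library. Of 10 other calcium sensors, Calm3 was called higher and Calm2 and Capg lower, beside 22.6% higher and 16.9% lower over all genes. Without neutrophil-like cells Gsn was called higher too (0.15, adjusted p = 0.0414 by limma), beside 21.4% higher over all genes. Calls among the calcium sensors were thus about as frequent as over all genes.

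In the tumor, S100a8 and S100a9 marked the neutrophil-like cells, while S100a4 and S100a10 were low there and high in the monocyte/macrophage-like cells. The neutrophil-like clusters were led by Ngp, Ltf and Camp, by Steap4, Lrg1 and Cxcr2, by Ifit1 and Isg15, or by Ccdc126, Ciart and Ddit3. The monocyte/macrophage-like clusters (685 to 1573 cells per library) were led by Arg1, Sdc1 and Thbs1, by Tmem176b and Ccr2, or by H2-Eb1 and Timd4. Another cluster, led by Ctsk, Acp5 and Mt3 (78 to 360 cells per library), was not named and is in neither class. Its further leading genes were Col1a2, C1qc, Col1a1, Sparc, Col3a1, C1qa and Lpl. C1qa and C1qc are among the macrophage markers, so the monocyte/macrophage-like class does not hold every cell with them. The unnamed cluster averaged 4.17 to 12.9 of S100a4, 4.33 to 7.69 of S100a10, 8.13 to 18.1 of S100a6 and 3.37 to 6.76 of S100a11 per library. A count of S100a4 was seen in 29.4% to 60.3% of its cells. Of all genes tested, 15.6% had higher and 68.0% lower values in neutrophil-like cells of every library than in monocyte/macrophage-like cells of any library. The median over 5844 genes was -0.57, so the differences that follow are to be read against a general shift to lower levels in neutrophil-like cells.

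S100a8 averaged 453, 487, 506 and 465 in the neutrophil-like cells of libraries 2 to 5 and 34.2, 64.1, 60.2 and 51.7 in their monocyte/macrophage-like cells. S100a9 averaged 559, 594, 588 and 595 beside 39.5, 73.2, 67.2 and 63.8. The log2 differences were 3.22 ± 0.349 and 3.30 ± 0.358 (SD, n = 4 libraries). S100a6 averaged 44.3, 48.2, 51.2 and 48.3 in neutrophil-like and 25.9, 27.9, 28.1 and 26.2 in monocyte/macrophage-like cells, a difference of 0.83 ± 0.0536. S100a11 averaged 23.7, 23.3, 23.7 and 24.0 beside 13.4, 16, 15.8 and 15.9, a difference of 0.63 ± 0.124. These 4 members were higher in neutrophil-like cells in 4 of 4 libraries, without overlap between the classes.

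S100a4 and S100a10 were in the opposite order. S100a4 averaged 0.0705, 0.0769, 0.142 and 0.0618 in neutrophil-like cells and 6.64, 8.78, 7.80 and 7.75 in monocyte/macrophage-like cells, a log2 difference of -5.40 ± 0.288 (SD, n = 4 libraries). S100a10 averaged 0.317, 0.297, 0.428 and 0.267 beside 9.51, 8.59, 8.55 and 10.0, a difference of -4.45 ± 0.311. With a pseudocount of 1 the differences were -3.00 for S100a4 and -2.94 for S100a10, so their size depends on the pseudocount. Both were lower in neutrophil-like cells in 4 of 4 libraries. The exact sign-flip test over libraries gave p = 0.13 (two-sided), the smallest that 4 libraries allow, for S100a8, S100a9, S100a6, S100a10 and S100a11. S100a4 averaged 0.0878 in neutrophil-like cells, below the minimum mean of 0.1. It passed by its level in monocyte/macrophage-like cells, so its difference is given as a description, with no test. S100a4 was present in 3.50% to 7.745% of neutrophil-like cells and in 79.1% to 86.6% of monocyte/macrophage-like cells, at median totals of 7483 to 7519 and 8525 to 8577 corrected counts.

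**Figure D3:**
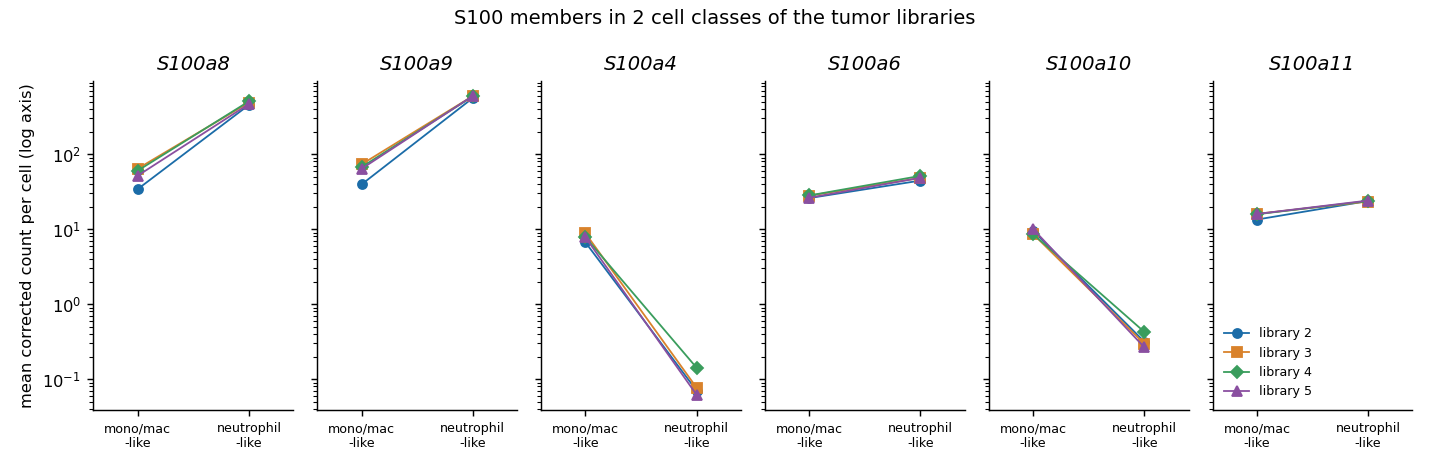
Mean corrected count per cell (log axis) of each member in monocyte/macrophage-like (left of each panel) and neutrophil-like cells (right) of the 4 tumor libraries, with the points of a library joined. S100a8 and S100a9 are 9.32-fold and 9.82-fold higher in neutrophil-like cells, S100a6 and S100a11 1.77-fold and 1.55-fold higher, and S100a4 and S100a10 fall from between 6.64 and 10.0 to between 0.0618 and 0.428.

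Among the neutrophil-like cells, levels depended on the cluster. The cluster led by Ngp, Ltf and Camp, which encode granule proteins of developing neutrophils, had the highest S100a8 (1278 to 1452 over 4 libraries), S100a9 (1260 to 1359), S100a6 (115 to 137) and S100a11 (37.5 to 41.1). The 3 other clusters had 325 to 455 of S100a8, 417 to 596 of S100a9, 33.9 to 48.7 of S100a6 and 16.5 to 29.2 of S100a11. For S100a11, the neutrophil-like cells led by Ccdc126 (16.5 to 18.9) overlapped the monocyte/macrophage-like cells led by H2-Eb1 and Timd4 (12.6 to 17.2). S100a8 and S100a9 together made up 13.3% to 14.5% of all corrected counts of neutrophil-like cells in the tumor, beside 0.875% to 1.63% in monocyte/macrophage-like cells. In culture they made up 6.63% and 5.77% of the counts of neutrophil-like Mo-MF cells and 0.00181% and 0.000330% of those of all B-MF cells, the former being 0.000274% without the 3 neutrophil-like cells.

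In monocyte/macrophage-like cells of the tumor, S100a8 and S100a9 lay in a minority of cells. The median cell had 1, 5, 3 and 2 counts of S100a8 in libraries 2 to 5. The 10.7% to 20.6% of cells with at least 100 counts held 78.8% to 84.1% of all S100a8 counts of the class, and for S100a9 12.5% to 22.2% of cells held 86.7% to 91%. A count of S100a8 was seen in 65.4% to 82.2% of monocyte/macrophage-like cells. It was also seen in 33.3% to 52.6% of T/NK-like cells (9 to 26 cells per library, median totals of 8204 to 8394). In B-like cells (8 in library 2 and 53 to 109 in the others) the share was 74.3% to 100%. With cells thinned to 5000 counts, the shares were 56.5% to 75.9% in monocyte/macrophage-like and 23.1% to 50% in T/NK-like cells. Library 2 had the lowest S100a8 and S100a9 in this class and also the lowest sum of neutrophil markers (5.52, beside 10.9, 8.84 and 9.94). In neutrophil-like cells the same sum was 68.2 to 96.6. A gate on F4/80 as well as CD11b would be meant to leave neutrophils out, yet neutrophil-like cells were found in every tumor library. Whether neutrophils counted together with these cells, or free RNA, took part was not tested.

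S100a4 was graded among the monocyte/macrophage-like clusters. It was highest in the cells led by Tmem176b, Ccr2 and Ly6c2, genes of recruited monocytes, at 10.9 to 12.4 over 4 libraries. It was 6.33 to 6.76 in those led by Arg1 and Thbs1, and 3.49 to 5.66 in those led by MHC class II genes. The clusters were formed from expression in these same cells, so this order is a description. S100a10 was ordered differently, with 9.82 to 11.7 in the Arg1 cells, 7.29 to 9.55 in the Ccr2 cells and 5.18 to 5.86 in the MHC class II cells. S100a6 was lowest in the last of these (17.6 to 23.1), and the Arg1 and Ccr2 cells overlapped (26.9 to 28.9 and 27.3 to 30.3). S100a4 was not limited to myeloid cells, since T/NK-like cells had 3.89 to 12.7 per library.

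The gap of S100a4 and S100a10 between neutrophil-like and other cells was smaller in culture. In Mo-MF, neutrophil-like cells had 4.73 and 5.52 of S100a10 beside 8.48 and 8.45 in other cells, and 0.919 and 0.733 of S100a4 beside 1.22 and 1.09. The log2 differences averaged -0.72 for S100a10 and -0.44 for S100a4, in the same direction as in the tumor. For S100a8 and S100a9 the gap in Mo-MF was 8.99 and 9.20, and for S100a6 and S100a11 it was 2.45 and 2.41. These differences were not tested against those of the tumor, since the tables were normalized apart and the other cells are of different kinds.

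Of the other S100 genes, S100a1 (-1.61 ± 0.0564) and S100a13 (-1.41 ± 0.0985) passed the minimum mean in the tumor, and both were lower in neutrophil-like cells of every library. S100a1 averaged 0.0880 in neutrophil-like cells and passed by its level in monocyte/macrophage-like cells. With a pseudocount of 1 the differences were -0.44 for S100a1 and -0.73 for S100a13, so their size depends on the pseudocount. Of 8 annexins tested, 2 were higher in neutrophil-like cells without overlap, Anxa1 (0.59) and Anxa11 (0.46), and 5 lower, among them Anxa5 (-3.00) and the S100A10 partner Anxa2 (-0.68). Over all genes, 15.6% were higher and 68.0% lower in this way, so the share of annexins that was lower was near that of all genes. Of 5 receptors tested, Cd14 (0.77), Tlr4 (0.53) and Bsg (0.52) were higher without overlap between the classes. Ly96 (-0.05) and Alcam (-0.10) were lower within 4 of 4 libraries, with overlapping classes. Of 10 calcium sensors, 4 were higher and 5 lower without overlap, beside the same shares over all genes.

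Co-expression across cells followed the same split. Pearson's r of ln(1 + corrected count) was computed within each library and is given as a mean over libraries, as a description. Cells of a library share its depth and normalization, and r over all cells also carries the difference between cell classes. In the tumor, S100a8 with S100a9 had r = 0.95 (0.942 to 0.961 over 4 libraries of 2318 to 3180 cells), the highest of the 15 pairs, and it was 0.86 within neutrophil-like and 0.89 within monocyte/macrophage-like cells. S100a4 with S100a10 followed (0.78, 0.752 to 0.804), and both were negative with S100a8 (-0.55 and -0.62). S100a6 and S100a11 were positive with S100a8 (0.43 and 0.48) and with each other (0.59). Within monocyte/macrophage-like cells the 6 pairs among S100a4, S100a6, S100a10 and S100a11 were all positive (0.29 to 0.50). Within neutrophil-like cells, S100a6 and S100a11 went with S100a8 (0.57 and 0.56) and S100a10 against it (-0.31).

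In Mo-MF, S100a8 with S100a9 had r = 0.93 over all cells (0.385 as Spearman's rho) and 0.94 within neutrophil-like cells, but 0.31 (0.251 and 0.377) in the other cells, where most values were 0. In B-MF it was 0.610 in replicate 1 and 0.142 in replicate 2 (5237 and 5326 cells), and without the 3 neutrophil-like cells of replicate 1 it was 0.0540 there. As Spearman's rho over all cells, the mean in B-MF was 0.0664. S100a4 with S100a6 was the highest pair of B-MF (0.57) and of Mo-MF without neutrophil-like cells (0.59). All pairs among S100a4, S100a6, S100a10 and S100a11 were positive in B-MF (0.24 to 0.57), and none of the 8 pairs of these genes with S100a8 or S100a9 exceeded 0.0613 in mean.

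**Figure D4:**
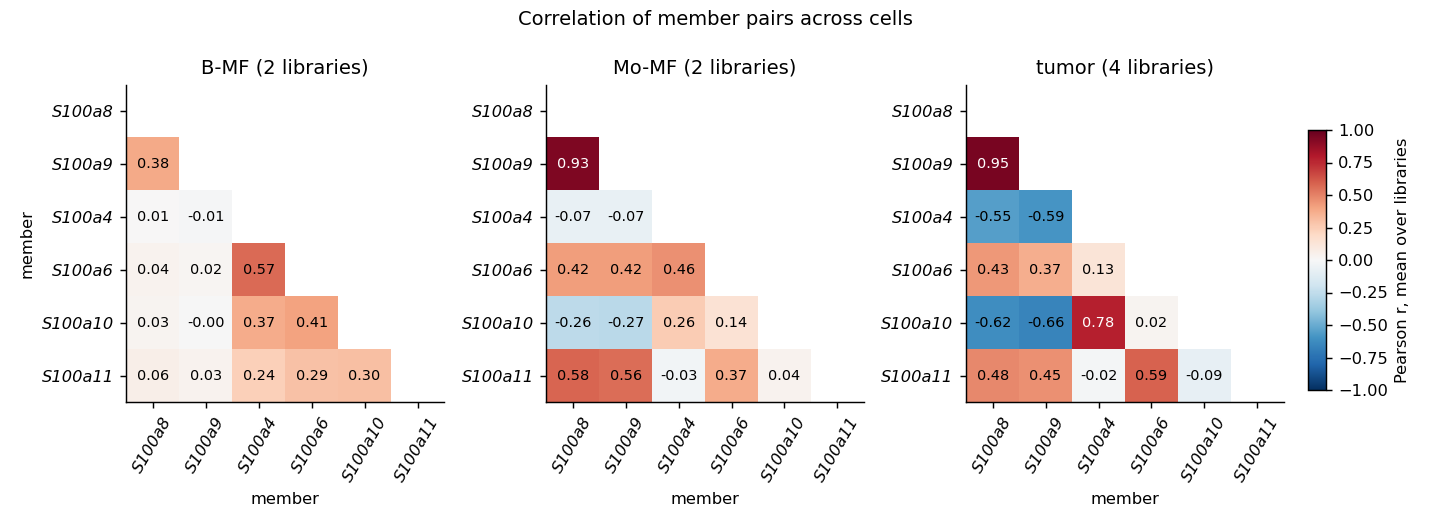
Pearson's r across cells for the 15 pairs of members in B-MF, Mo-MF and tumor libraries, as the mean over the libraries of each; red is positive and blue negative. S100a8 with S100a9 is at 0.93 in Mo-MF (0.385 as Spearman's rho) and 0.95 in the tumor (0.930 as rho), S100a4 with S100a10 reaches 0.78 in the tumor, and S100a4 with S100a6 leads in B-MF at 0.57.

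The genes outside the family whose pattern across cells was most like that of a member were sought for S100a9, S100a4 and S100a10. For S100a9 in the tumor they were Hdc (0.79), Wfdc21 (0.76), G0s2 (0.75), Stfa2l1 (0.72) and Grina (0.72), by mean r over 4 libraries among 5897 genes. In Mo-MF they were Stfa2l1 (0.90), Gm5483 (0.89), BC100530 (0.88), Cxcr2 (0.86) and Lcn2 (0.85), over 2 libraries and 8638 genes. In B-MF, where 0.248% and 0.244% of cells had an S100a9 count, no gene is named. For S100a4 in the tumor they were Crip1 (0.72), Ahnak (0.71), Ccr2 (0.70), Emp3 (0.69) and Vim (0.65), and for S100a10 Ahnak (0.76), Crip1 (0.76), Vim (0.74), Emp1 (0.72) and Emp3 (0.71). In B-MF, Vim, Ppia, Tmsb10 and Lgals1 were among the first 5 for both S100a4 and S100a10, and the annexin partner Anxa2 was the fifth for S100a10 (0.45). In Mo-MF, the first for S100a4 was Pcp4l1 (0.44), followed by Ppia, Tmem171, Kcnn4 and Rplp0, and for S100a10 Lgals1 (0.50), followed by Lgals3, Vim, Ppia and Capg.

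In the libraries of sorted B-cell precursors, promoter peaks again set S100a8 and S100a9 apart from the other members. A promoter was counted as open where a peak of the library came within 1000 bases of a transcript start. S100a8 and S100a9 had such a peak in 6 of 6 BM libraries and in 0 of 6 spleen libraries, which was the case for 3.39% of 21924 protein-coding genes, while the reverse was seen for 0.0912%. Several neutrophil markers shared this pattern, and the peak lists of the spleen were shorter, as given below. S100a4, S100a6, S100a10 and S100a11 had a peak in 12 of 12 libraries, as did 51.9% of all genes. In S100a8, summits were 118 bases before to 166 bases after the nearest start, and the 6 peaks overlapped the sequence printed above. The B-cell markers tested had peaks in all 12 libraries (6 of 6 genes).

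The deposited lists hold no read counts, so the height of a peak was taken as the rank percentile of its fold enrichment within its own library, with 0 where there was no peak. BM libraries had 65832 to 76530 peaks and spleen libraries 43407 to 50392, so that a percentile in one tissue does not stand for the same height in the other. For S100a8 it was 63.8, 70.0 and 54.3 in CSF1R+ BM, 58.4, 58.4 and 56.8 in CSF1R- BM and 0 in all spleen libraries. For S100a9 it was 37.5, 38.0 and 42.4 in CSF1R+ BM, 24.5, 24.8 and 42.7 in CSF1R- BM and 0 in the spleen. The 0 of the spleen stands for the absence of a called peak, so no test of height between the tissues is given.

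The members open in both tissues are described within each. The percentile of S100a4 was 34.15, 60.4 and 56.5 in CSF1R+ BM and 42.4, 35.55 and 46.9 in CSF1R- BM, and 81.7, 92.5 and 78.5 in CSF1R+ and 57.5, 55.9 and 87.5 in CSF1R- cells of the spleen. Its mean was 46.0 ± 10.8 among BM peaks and 75.6 ± 15.4 among spleen peaks (SD, n = 6 each), and it varied more between libraries than the other 3. S100a11 was high in the lists of both tissues (88.4 ± 1.52 in BM and 83.7 ± 3.99 in spleen), above S100a6 (75.9 ± 2.83 and 71.0 ± 4.23) and S100a10 (67.2 ± 3.46 and 68.4 ± 1.67) by its means. As the lists differ in length, these percentiles give no difference between BM and spleen.

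**Figure D5:**
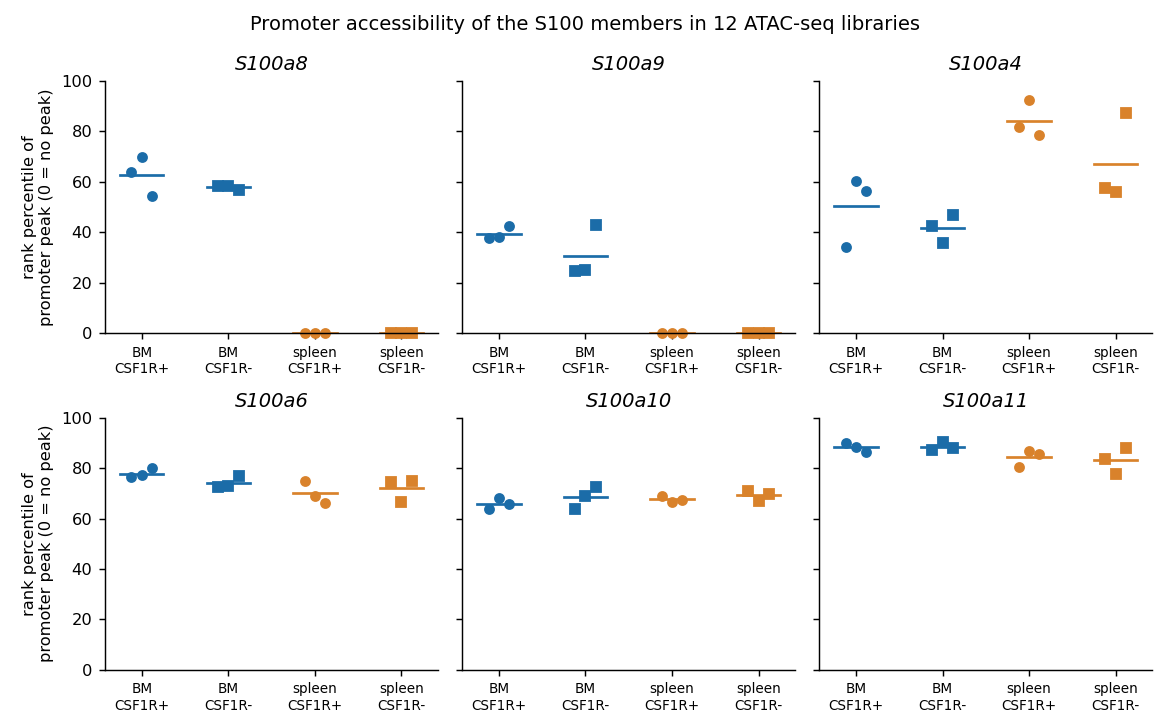
Rank percentile of the promoter peak of each member within its own ATAC-seq library (0, no peak), for CSF1R+ (circles) and CSF1R- (squares) B-cell precursors of the BM (blue) and the spleen (orange), with 3 libraries per group and lines at their means. S100a8 and S100a9 are at 24.5 to 70.0 in the BM and at 0 in every spleen library, whereas the other 4 members have a peak in all 12.

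Between CSF1R+ and CSF1R- cells of a tissue, no member and no promoter at all (0.0%) passed adjustment. With 3 libraries against 3 the smallest p of this exact permutation test on percentiles is 0.1, so it could not have called one. In the BM the differences in mean percentile were 4.83 for S100a8, 8.63 for S100a9 and 8.75 for S100a4 (exact permutation p = 0.4 each), with overlapping libraries. With a library left out they ranged from 1.16 to 9.02, from 5.52 to 14.7 and from 3.71 to 16.8, so their size rests on single libraries. In the spleen, S100a4 was at 84.2 ± 7.33 in CSF1R+ and 67.0 ± 17.8 in CSF1R- cells (SD, n = 3; exact permutation p = 0.3), a difference of 17.2 that ranged from 11.7 to 27.5 with a library left out. S100a11 differed by -0.08 in the BM and 1.18 in the spleen.

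Many neutrophil genes had peaks in the same libraries as S100a8 and S100a9. Of the 12 neutrophil markers, 5 (Cxcr2, Ngp, Camp, Ltf and Lcn2) likewise had a promoter peak in 6 of 6 BM and 0 of 6 spleen libraries. This was the case for 3.39% of all protein-coding genes. Csf3r and Mmp8 had one in 5 BM libraries and no spleen library, and Retnlg, Ly6g and Mpo in 4, 3 and 2 BM libraries and no spleen library. Mmp9 had one in all 12 libraries and Elane in none. Whether myeloid cells among the sorted BM cells took part in the peaks at S100a8 and S100a9 was not tested. Of the other S100 genes, S100a1, S100a3 and S100a13 had a peak in all 12 libraries and S100a14, S100a16, S100b, S100g and S100z in none, beside 51.9% and 34.15% of all genes.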

How the data were processed

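The members and gene lists were chosen with earlier results of these data known. For scRNA-seq (10x Chromium), per the labels and the paper's methods, the authors counted transcripts with Cell Ranger on mm10, required 1000 detected genes per cell (3 and 1 cells of tumor libraries 3 and 5 had fewer), applied SCTransform to correct the counts, and the deposited values are the natural log (ln) of 1 plus the corrected count. All values above 0 came out whole within 1e-06 when converted back. Sequencing depth is unknown after this correction, so no count model was used and the spread between libraries stands for the precision. The tumor columns could not be matched to single samples and are used as libraries of 1 group.

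For each library, corrected counts were averaged over cells, and log2(mean + 0.1) of genes with a mean of at least 0.1 was compared by limma's lmFit and eBayes (version 3.58.1, R 4.3.3) with Benjamini-Hochberg adjustment over all genes tested, at a threshold of 0.05. The numbers of B-MF and Mo-MF replicates do not mark shared batches in the labels and were not used as pairs. Cells were clustered by Leiden (leidenalg 0.10.2; resolution 0.5, 20 neighbours, 30 components of 2000 variable genes, no S100 gene). A cluster could be named for a type where at least 3 and at least 50% of its markers exceeded the median over clusters. Among such types, the one with the highest mean log2 ratio to that median was taken. In culture, at least 2 of the leading genes of the cluster also had to be markers of the type. The name was dropped where another type had more markers among the leading genes. This naming rule was chosen after seeing the data, and doublets were not removed. Tumor classes were compared by differences within libraries with a two-sided exact sign-flip test.

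For ATAC-seq, the authors trimmed reads with cutadapt, aligned them with BWA to mm10 and called peaks in each library (the labels name MACS2). The deposited lists give a fold enrichment (ratio) and −log10 p and q for each peak, and hold no read counts, so sequencing depth is unknown. Promoters were taken from GENCODE vM21 (GRCm38), and the exact permutation test was run on rank percentiles for all promoters, with adjustment over all of them in place of the members alone. The planned test of percentiles between BM and spleen is not reported, since their lists differ in length and a missing peak was set to 0. Genes named are the members, the listed S100, annexin, receptor and calcium sensor genes, and the 5 genes most correlated with S100a9, S100a4 and S100a10. Neutrophil markers, from a fixed list, and the leading genes of clusters, chosen after their values were seen, are named too. Values of 1 calcium sensor gene are not reported here. The script for limma was tested on simulated data. Alternatives were other pseudocounts, filters, scaling, resolutions, windows and peak thresholds, a replicate block, and leaving out each library. The other steps were run in Python 3.11.15 with pandas 2.3.3, scipy 1.17.1, numpy 2.4.6 and matplotlib 3.10.9.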

Additional observations from a re-analysis of the deposited data

Results flagged for a closer look

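Among the member levels in the 4 tumor libraries, the S100a11 mean in monocyte/macrophage-like cells of library 2, 13.4 corrected counts per cell, lay far from the other 3 libraries (15.8 to 16). Its gap to the nearest was 0.925 of the whole range. Chance flags about 1 in 20 groups of this size, and the levels of all 6 members were examined in all cells and in both classes. The same library had the lowest S100a8, S100a9 and neutrophil marker sum in this class, and whether these are connected was not tested.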

How the results depend on the processing

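S100a11 kept its direction and call between B-MF and Mo-MF under every alternative run, with and without neutrophil-like cells, and the direction of all 6 members between tumor classes held at every alternative. The counts of genes called were 951 lower in B-MF at a mean of at least 0.5 and, with a library left out, 1103 to 3858 higher and 913 to 2933 lower over all cells, and 1048 to 3483 higher and 874 to 3100 lower without neutrophil-like cells. These rest on a fit that assumes the lone sample varies like the other group. S100a4 became called (0.13) with the mean of ln values, and ranged from -0.10 to 0.16 over all cells and from -0.14 to 0.11 outside neutrophil-like cells when a library was left out. Outside neutrophil-like cells, S100a6 became called at a pseudocount of 1 (0.070), with the cells led by Sparc, Cald1 and Col1a2 still included. Without the cluster led by Igkc, Prss34 and Mcpt8, an alternative chosen after seeing the data, the signs of S100a4 (0.047) and S100a10 (0.018) turned. The cause was not tested for any of these.

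With the replicate number as a block, 2238 genes were higher and 1670 lower over all cells, and no member's call changed. The numbers were not used as pairs, since labels state no shared batch and deviations of same-numbered libraries had a correlation of only 0.126 over 2 pairs.

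Mean r of S100a8 with S100a9 moved in Mo-MF to 0.385 as Spearman's rho and 0.314 outside neutrophil-like cells, in B-MF from 0.376 to 0.0664 as rho, 0.0978 outside neutrophil-like cells and 0.142 to 0.610 with a library left out, and in the tumor to 0.930 as rho, 0.856 within neutrophil-like cells and 0.895 within the monocyte/macrophage-like. In ATAC-seq, the percentile of S100a4 in BM minus that in spleen was -33.6 to -26.2 and that of S100a11 3.44 to 5.51 with a library left out, values not read as differences between tissues because the peak lists differ in length. Between CSF1R+ and CSF1R- cells, S100a11 ranged from -0.95 to 0.84 in BM and from -1.53 to 3.67 in spleen.

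Signs also turned for genes that did not pass the test in the reported fit. Over all cells these were Cd36 (0.029) and Lcp1 (0.043) with the mean of ln values, and with a library left out Cd36 (-0.089 to 0.0025) and Sri (-0.015 to 0.022). Outside neutrophil-like cells they were Ly96 (-0.0013 at resolution 1, -0.0026 to 0.021 with a library left out) and Pdcd6 (0.0055 without the mixed cluster). In the tumor it was Anxa3 (-0.0081 without library 5). Depth per library is unknown, so low levels such as S100a9 in B-MF are limited by counting that these tables do not show.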
